A study of Rattus norvegicus with 12 samples.

Results

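Patescibacteria and Cyanobacteria that do not photosynthesise were followed through 12 libraries of rat faeces, profiled by sequencing the 16S rRNA gene of bacteria. Members were all amplicon sequence variants (ASVs, exact sequences inferred from the reads) whose deposited lineage names the phylum Patescibacteria or the phylum Cyanobacteria and not the order Chloroplast. They were 151 of the 7238 ASVs in the table. Patescibacteria had 54 ASVs with 8852 reads in all, and Cyanobacteria had 97 ASVs with 16441 reads. The table held 0 ASVs named Chloroplast and 0 named Mitochondria, so the Chloroplast condition removed none. Of the 97 cyanobacterial ASVs, 96 were named Vampirivibrionia, all of its order Gastranaerophilales, and 1 was named Sericytochromatia. Both classes are known from genomes that lack photosynthesis genes, so the deposited names carry no photosynthetic lineage.

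Rat faeces were collected to ask whether the gut microbiota differed among animals of 4 groups, with 3 libraries in each. SAH+Tet+ABX is the SAH model with Tet and with ABX. SAH usually stands for subarachnoid haemorrhage and ABX for antibiotics, and Tet is read here as tetrandrine. Tetrandrine is an alkaloid from a climbing plant and a calcium channel blocker. SAH+Tet is the model given Tet without ABX, and SAH is the model without either. Sham is the sham-operated control. Strain, age, sex, drugs within ABX, doses and the interval between surgery and sampling are not stated in the labels. A treatment label shared by all samples names a cell differentiation protocol that has no place in faeces, and it was not used. No label says whether each library comes from its own animal, so the p-values measure only the spread between these libraries, which may be technical.

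Members of Patescibacteria have very small cells and genomes and lack many biosynthetic pathways. Cultured Saccharimonadia, formerly called TM7, live attached to the surface of other bacteria, and the known hosts are Actinobacteria. Most other Patescibacteria are known from groundwater and sediment. Gastranaerophilales are gut relatives of the photosynthetic cyanobacteria that are thought to live by fermentation. Sericytochromatia are a further non-photosynthetic class, known from environmental samples.

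Library totals ran between 211450 and 531426 reads. The 3 SAH+Tet+ABX libraries, SAH+Tet 3 and SAH 1 held fewer than 300000 reads, and the other 7 held more. Depth and antibiotic treatment therefore cannot be told apart across all groups, and SAH+Tet 3 is the only library of similar depth for SAH+Tet+ABX among those with tetrandrine. Where 0 reads were counted, the limit given is 3 reads of the library, which is 0.000565% in the deepest and 0.00142% in the shallowest. Intervals and limits of this kind cover counting error alone, since PCR makes many reads from 1 molecule. All values are shares of reads, with no correction for 16S copies per genome, so fewer cells, less DNA per cell and growth of other bacteria cannot be told apart.

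Patescibacteria were near 0 in all 3 SAH+Tet+ABX libraries and Cyanobacteria in all but SAH+Tet+ABX 1. In the 9 other libraries each phylum was a minor part of the community, highest for Cyanobacteria in Sham 2 and SAH+Tet 3. Patescibacteria took 0.00284%, 0.00128% and 0.00123% of reads in SAH+Tet+ABX 1, 2 and 3. They took 0.155%, 0.113% and 0.0400% in SAH+Tet, and 0.0379%, 0.255% and 0.252% in SAH. In Sham they took 0.243%, 0.272% and 0.445%. The SAH+Tet+ABX libraries lay below all 9 others, and SAH+Tet 3 and SAH 1 lay below the rest of their groups. These 2 low libraries are also the 2 of lower depth among those without antibiotics. The 95% exact Clopper-Pearson interval of SAH+Tet 3 was 0.0322% to 0.0492% and that of SAH 1 was 0.0306% to 0.0463%, so counting error does not span the gap to their groups. The part of depth class in this gap was not tested.

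Cyanobacteria took 0.177%, 0.00171% and 0% of reads in SAH+Tet+ABX 1, 2 and 3. The last value is 0 of 244856 reads, which allows a share of up to 0.00123%. In SAH+Tet they took 0.201%, 0.260% and 0.958%, in SAH 0.0689%, 0.165% and 0.437%, and in Sham 0.250%, 1.09% and 0.374%. SAH+Tet+ABX 1 lay within the range of the SAH libraries, and SAH+Tet 3 and Sham 2 stood far above the others of their groups. SAH+Tet 3 thus held the second-highest cyanobacterial share of the 12 libraries and the lowest patescibacterial share of its group. Reads of Cyanobacteria per read of Patescibacteria were 62.5 and 1.33 in SAH+Tet+ABX 1 and 2. They were 1.29, 2.30 and 23.9 in SAH+Tet, 1.82, 0.646 and 1.73 in SAH, and 1.03, 4.00 and 0.841 in Sham. The 2 phyla did not keep a fixed ratio even within a group.

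**Figure D1:**
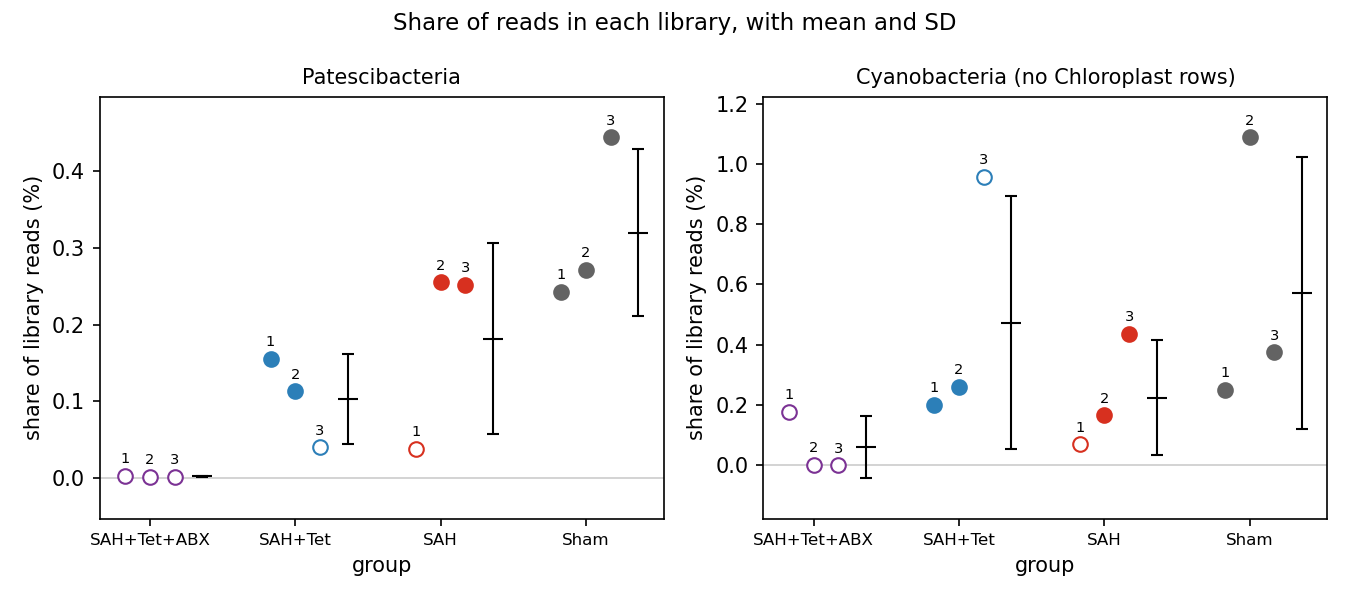
Share of library reads in percent (vertical axis) held by each phylum in the 12 libraries, by group. Numbers are library numbers, open circles mark libraries with fewer than 300000 reads, and the bar beside each group is its mean with SD (n = 3). Patescibacteria lie at 0.00284% or less in SAH+Tet+ABX, whereas Cyanobacteria reach 0.177% in SAH+Tet+ABX 1.

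Over the 4 groups, the patescibacterial share differed and the cyanobacterial share did not pass. Group means were 0.00178% ± 0.000915 in SAH+Tet+ABX, 0.103% ± 0.0583 in SAH+Tet, 0.182% ± 0.125 in SAH and 0.320% ± 0.109 in Sham for Patescibacteria (SD, n = 3 throughout). The exact permutation test of the F statistic of log2(share in percent + 0.001) gave p = 0.00416, adjusted p = 0.0166 over 16 phyla. By this test 56.2% of the 16 phyla passed, so a phylum that differed among the groups was the common case here. For Cyanobacteria the means were 0.0597% ± 0.102 in SAH+Tet+ABX, 0.473% ± 0.421 in SAH+Tet, 0.224% ± 0.191 in SAH and 0.571% ± 0.452 in Sham (exact permutation p = 0.0394, adjusted p = 0.0630). The patescibacterial call rests on SAH+Tet+ABX: among the 9 other libraries the adjusted p was 0.510 (exact permutation). The cyanobacterial share passed when SAH+Tet+ABX 1 was left out (exact permutation, adjusted p = 0.0222). That library held 375 of the 379 cyanobacterial reads of its group.

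Between single pairs of groups, 3 libraries against 3 cannot give an exact p below 0.1. Groups of 3 libraries did not overlap in 62.5% of the 16 phyla between SAH+Tet+ABX and SAH+Tet, and both phyla were among them. The mean share in SAH+Tet+ABX was 57.7-fold lower than in SAH+Tet for Patescibacteria (log2 difference -5.07, exact permutation p = 0.1) and 7.92-fold lower for Cyanobacteria (-5.56, p = 0.1). The cyanobacterial log2 difference was -7.81 without SAH+Tet+ABX 1 and -4.07 without SAH+Tet+ABX 3. SAH+Tet 3, the library of like depth, lay above all 3 SAH+Tet+ABX libraries for both phyla. These log2 differences are means of logs of share + 0.001. For Cyanobacteria the SAH+Tet+ABX library at 0 weighs more on them than on the ratio of mean shares. For Patescibacteria no library was at 0. There the added 0.001 is close in size to the shares of SAH+Tet+ABX 2 and 3 (0.00128% and 0.00123%), which makes the log2 difference smaller. For SAH+Tet against SAH the log2 difference was -0.60 for Patescibacteria (exact permutation p = 0.6) and 1.11 for Cyanobacteria (p = 0.4). With 1 library left out the patescibacterial value lay between -0.03 (without SAH+Tet 3) and -1.50 (without SAH 1). The cyanobacterial value was 0.42 without SAH+Tet 3, 0.46 without SAH 1 and 1.78 without SAH 3, and -0.23 within the higher depth class. For SAH against Sham it was -1.19 for Patescibacteria and -1.45 for Cyanobacteria (exact permutation p = 0.3 each). Without SAH 1 it was -0.28 for Patescibacteria and -0.80 for Cyanobacteria, and without Sham 2 it was -0.84 for Cyanobacteria. The groups overlapped for both phyla in both of these comparisons, where 6.25% and 12.5% of the phyla did not. The comparisons share libraries and are not independent of each other.

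Fewest ASVs of both phyla were found in SAH+Tet+ABX, and SAH 1 and SAH+Tet 3 had the fewest among the other libraries. The same libraries were lowest over all ASVs of the table, so this order is not particular to the 2 phyla. All ASVs observed numbered 440, 661 and 623 in SAH+Tet+ABX and 2557, 2476 and 1328 in SAH+Tet. They numbered 1171, 2259 and 1985 in SAH and 2300, 2300 and 2416 in Sham. Counts were brought to 1 common depth of 211450 reads by the exact hypergeometric expectation. Patescibacteria then had 1.00 ± 0.0013 ASVs in SAH+Tet+ABX, 12.0 ± 4.03 in SAH+Tet, 11.1 ± 6.22 in SAH and 15.4 ± 3.39 in Sham (exact permutation p = 0.0255, adjusted p = 0.0566 over 16 phyla). Cyanobacteria had 0.667 ± 0.577 ASVs in SAH+Tet+ABX, 23.5 ± 4.94 in SAH+Tet, 22.2 ± 12.3 in SAH and 30.0 ± 4.94 in Sham (exact permutation p = 0.00974, adjusted p = 0.0390). Of the 16 phyla, 25.0% passed. The cyanobacterial call was lost without any 1 of the SAH+Tet+ABX or Sham libraries or without SAH+Tet 1, with adjusted p between 0.0559 and 0.0962, and it was 0.971 among the 9 libraries without antibiotics (exact permutation). The patescibacterial number passed without SAH+Tet 3 (adjusted p = 0.0361) or without SAH 1 (0.0264, exact permutation).

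In single libraries the observed number of patescibacterial ASVs was 1, 1 and 1 in SAH+Tet+ABX, 12, 17 and 8 in SAH+Tet, 4, 16 and 15 in SAH, and 12, 18 and 19 in Sham. For Cyanobacteria it was 1, 1 and 0 in SAH+Tet+ABX, 26, 28 and 18 in SAH+Tet, 9, 35 and 25 in SAH, and 30, 37 and 26 in Sham. SAH 1 was lowest of the libraries without antibiotics for both phyla. SAH+Tet 3 was the next lowest, although its cyanobacterial reads were the most numerous of SAH+Tet. At the common depth SAH 1 had 3.95 patescibacterial and 9.00 cyanobacterial ASVs, so thinning the deeper libraries did not close the gap.

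**Figure D2:**
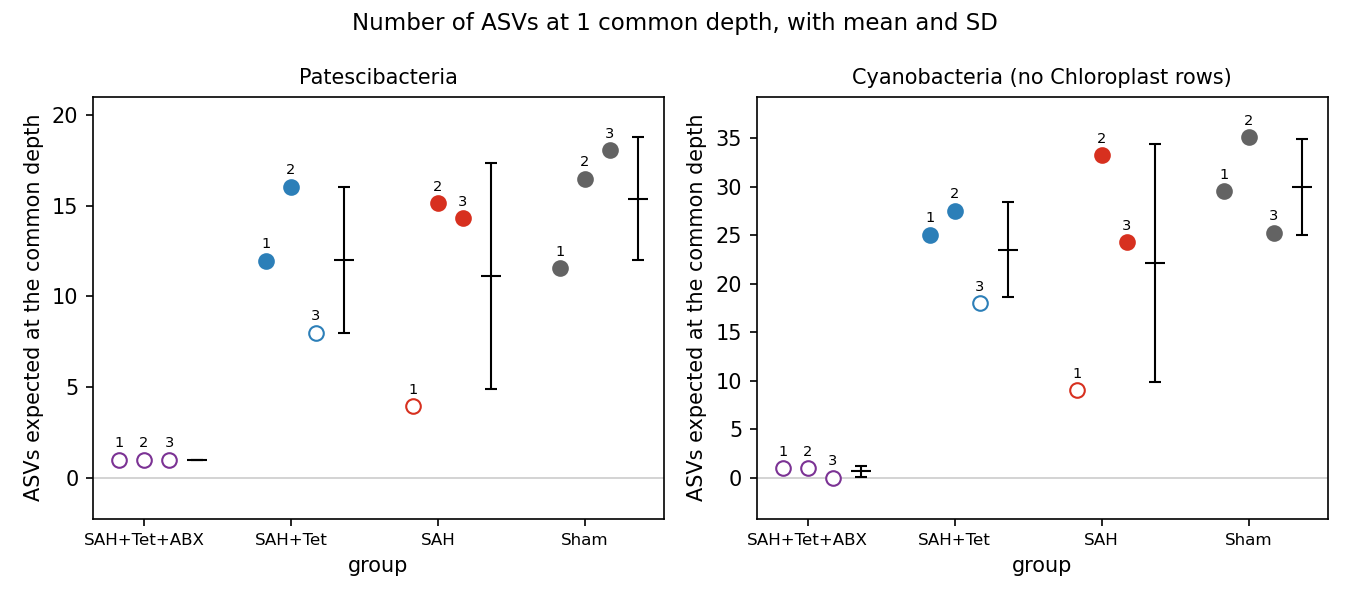
Number of ASVs of each phylum expected at 211450 reads (vertical axis), by library and group. Open circles mark libraries with fewer than 300000 reads and the bar is the group mean with SD (n = 3). SAH+Tet+ABX libraries hold at most 1 ASV of either phylum, and SAH 1 is the lowest of the other 9.

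Patescibacteria were almost entirely 1 genus. Saccharimonadia held 32 of the 54 ASVs and 99.2% of the reads of the phylum, and of these 32, all but 8 ASVs with 40 reads were named Candidatus Saccharimonas. Candidatus Saccharimonas, a genus name given to TM7 bacteria, had 0, 0 and 0 reads in SAH+Tet+ABX and 705, 572 and 75 in SAH+Tet. It had 90, 1345 and 1129 reads in SAH and 1199, 1325 and 2299 in Sham. It was absent at this depth from each SAH+Tet+ABX library and present in each of the 9 others, so all 12 patescibacterial reads of SAH+Tet+ABX belonged to other lineages. Its mean share was 0.0992% ± 0.0613 in SAH+Tet, 0.180% ± 0.125 in SAH and 0.317% ± 0.109 in Sham.

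In edgeR's quasi-likelihood test on all genus-level counts, Candidatus Saccharimonas fell in SAH+Tet+ABX against SAH+Tet (adjusted p = 0.00106). With 0 reads in each SAH+Tet+ABX library, the genus entered the test through the other groups, so lower was the only direction open to it. Its share was at least 75.8-fold lower, a bound set with 3 reads in each SAH+Tet+ABX library. In that comparison 37.2% of the 196 genus-level features tested passed. For SAH+Tet against SAH its log2 fold change was -1.03 ± 0.85 SE (edgeR adjusted p = 0.568), and for SAH against Sham it was -0.50 ± 0.84 (0.728). With 1 library left out these lay between -1.50 (without SAH 1) and -0.51 (without SAH+Tet 3), and between -0.96 (without SAH 2) and -0.03 (without SAH 1). With depth class as a term the 2 values were -0.99 and -0.06. With limma on centred log-ratios they were -0.61 and -1.69, and none of these passed. In both of these comparisons 0 of 188 features passed in edgeR (0.0%). At an unadjusted p below 0.05 there were 37 (19.7%) for SAH+Tet against SAH and 55 (29.3%) for SAH against Sham, and 0 of them were members. Between SAH+Tet+ABX and SAH+Tet 50.5% of the features were below it. DESeq2 called 30 and 48 and limma on centred log-ratios 1 and 9, and neither tool called a member of the 2 phyla.

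The other Patescibacteria were rare. Genus-level features named Saccharimonadales had 0, 0 and 0 reads in SAH+Tet+ABX, 0, 0 and 3 in SAH+Tet, 2, 3 and 0 in SAH, and 4, 16 and 0 in Sham. Candidatus Kaiserbacteria had 0, 3 and 0 reads in SAH+Tet+ABX, 0, 4 and 2 in SAH+Tet, 0, 3 and 0 in SAH, and 0, 3 and 5 in Sham. The feature named Parcubacteria at the level of genus had 6, 0 and 0 reads in SAH+Tet+ABX, 0 in each SAH+Tet library, 0, 3 and 0 in SAH, and 2, 0 and 4 in Sham. All 3 were scattered across groups at a few reads a library, with the 16 reads of Sham 2 as the highest count. Parcubacteria and Candidatus Kaiserbacteria belong to the lineages known mainly from groundwater. The remaining features were unnamed Saccharimonadales (12 reads), Candidatus Nomurabacteria (12), unnamed Parcubacteria (11), Candidatus Azambacteria (7), Candidatus Yanofskybacteria (3, all in SAH+Tet+ABX 3), Berkelbacteria (3, all in Sham 3) and WWE3 (2, all in SAH+Tet 2). None of these reached 10 reads in 3 libraries, so none was tested.

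Outside Saccharimonadia, 22 patescibacterial ASVs had 73 reads in all. No such ASV exceeded 6 reads in any library, 20 of the 22 were seen in 1 library only, and 11 of the 12 libraries held some. They were the only Patescibacteria in SAH+Tet+ABX, with 6, 3 and 3 reads, each library holding a different ASV. At such counts neither a level nor a group difference can be read from a single ASV.

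Cyanobacteria were likewise nearly all of 1 lineage. Gastranaerophilales held 99.98% of the phylum's reads, and Sericytochromatia had 4 reads, all in Sham 1. Gastranaerophilales had 375, 4 and 0 reads in SAH+Tet+ABX, 919, 1346 and 2177 in SAH+Tet, 171, 877 and 1960 in SAH, and 1238, 5426 and 1944 in Sham. Their log2 fold change was -3.07 ± 1.91 SE for SAH+Tet+ABX against SAH+Tet (edgeR adjusted p = 0.204). Without SAH+Tet+ABX 1, which held 375 of the group's 379 reads, it was -9.01 (edgeR adjusted p = 0.0102). In that fit 32.8% of the 189 features passed, and the fitted value is not a measured fold. The lineage passed in no other fit with 1 library left out. For SAH+Tet against SAH the log2 fold change was 0.78 ± 0.84 (edgeR adjusted p = 0.667), and -0.02 without SAH+Tet 3. For SAH against Sham it was -1.09 ± 0.84 (edgeR adjusted p = 0.446). Whether the 2 lineages differ in their change was not tested.

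The Candidatus Saccharimonas ASVs are numbered here by mean share over the 12 libraries, and the 6 most abundant had 0 reads in the 3 SAH+Tet+ABX libraries. ASV 1 had 157, 97 and 0 reads in SAH+Tet, 0, 275 and 246 in SAH, and 236, 184 and 320 in Sham. ASV 4 had 0, 24 and 0 reads in SAH+Tet, 0, 158 and 147 in SAH, and 201, 152 and 506 in Sham. ASV 5 had 43, 66 and 0 in SAH+Tet, 0, 198 and 183 in SAH, and 111, 91 and 242 in Sham. Each of these 3 was missing from SAH+Tet 3 and from SAH 1 and present in SAH 2, SAH 3 and all Sham libraries. ASVs 3 and 6, given below, showed the same pattern.

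ASV 2 had 209, 116 and 30 reads in SAH+Tet, 87, 252 and 157 in SAH, and 149, 103 and 194 in Sham. It was the only patescibacterial ASV with reads in all 9 libraries without antibiotics. It made up 92.6% of the patescibacterial reads of SAH 1. It took 29.4%, 19.9% and 33.0% of the phylum in SAH+Tet, 92.6%, 18.6% and 13.9% in SAH, and 12.4%, 7.60% and 8.39% in Sham. Its part of the phylum was thus lower in every Sham library than in every SAH or SAH+Tet library, while its share of all reads overlapped among these groups. The margin was narrow, 12.4% in Sham 1 against 13.9% in SAH 3. Such a part also depends on the reads of the other ASVs, and how many ASVs separate in this way was not counted. ASV 2 fell in SAH+Tet+ABX against SAH+Tet (log2 fold change -9.86, edgeR adjusted p = 0.0170), at least 20.7-fold by the same bound.

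ASV 3 had 72, 81 and 0 reads in SAH+Tet, 0, 45 and 29 in SAH, and 219, 530 and 447 in Sham. Its mean share was 0.00498% ± 0.00442 in SAH and 0.0788% ± 0.0317 in Sham, 15.8-fold lower in SAH. Every SAH library lay below every Sham library, and 30.7% of all ASVs tested did not overlap between these groups. The difference did not pass in edgeR (log2 fold change -3.62 ± 2.14 SE, adjusted p = 0.335). Within the phylum it made up 8.00% ± 7.18 of reads in SAH+Tet, 1.96% ± 1.74 in SAH and 25.5% ± 11.8 in Sham. In SAH 2 and SAH 3, whose patescibacterial shares were close to those of Sham 1 and Sham 2, it held 3.32% and 2.56% of the phylum, against 18.2% and 39.1% in Sham 1 and Sham 2. The makeup of the genus therefore differed between libraries of like total share.

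ASV 6 had 27, 0 and 0 reads in SAH+Tet, 0, 90 and 81 in SAH, and 114, 106 and 212 in Sham. Its share was also below every Sham library in each SAH library (2.43-fold lower in the mean, log2 fold change -0.91 ± 2.21 SE, edgeR adjusted p = 0.896). In this comparison 30.7% of all ASVs tested did not overlap. A further variant, ASV 9, lies outside the 6 most abundant and was picked after its values were seen. It had 21, 44 and 45 reads in SAH+Tet, 0 in each SAH library, and 0, 50 and 0 in Sham. It made up 49.5% of the patescibacterial reads of SAH+Tet 3, where ASVs 1, 3, 4, 5 and 6 had none. ASVs 1, 3, 4, 5 and 6 had 0 reads in SAH 1 as well, and ASV 2 had reads in both libraries. SAH+Tet 3 and SAH 1 thus shared a low total and the absence of ASVs 1, 3, 4, 5 and 6, but differed in ASV 9.

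Gastranaerophilales ASV 1, the most abundant member of either phylum, had 0 reads in each SAH+Tet+ABX library, 370, 14 and 942 in SAH+Tet, 0, 44 and 99 in SAH, and 0, 722 and 175 in Sham. It made up 40.3% and 43.3% of the cyanobacterial reads of SAH+Tet 1 and SAH+Tet 3, but 1.04% in SAH+Tet 2. ASV 2 had 0 reads in each SAH+Tet+ABX library, 9, 68 and 0 in SAH+Tet, 0 in each SAH library, and 0, 2170 and 7 in Sham. Its 2170 reads in Sham 2 were the highest count of any member in any library, out of 5426 cyanobacterial reads there. ASV 3 had 0 reads in each SAH+Tet+ABX library, 0, 0 and 275 in SAH+Tet, 0, 0 and 686 in SAH, and 173, 0 and 68 in Sham. In each of these 3 ASVs, 1 or 2 libraries set the group mean, and the SD of the share in SAH+Tet was above its mean.

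**Figure D3:**
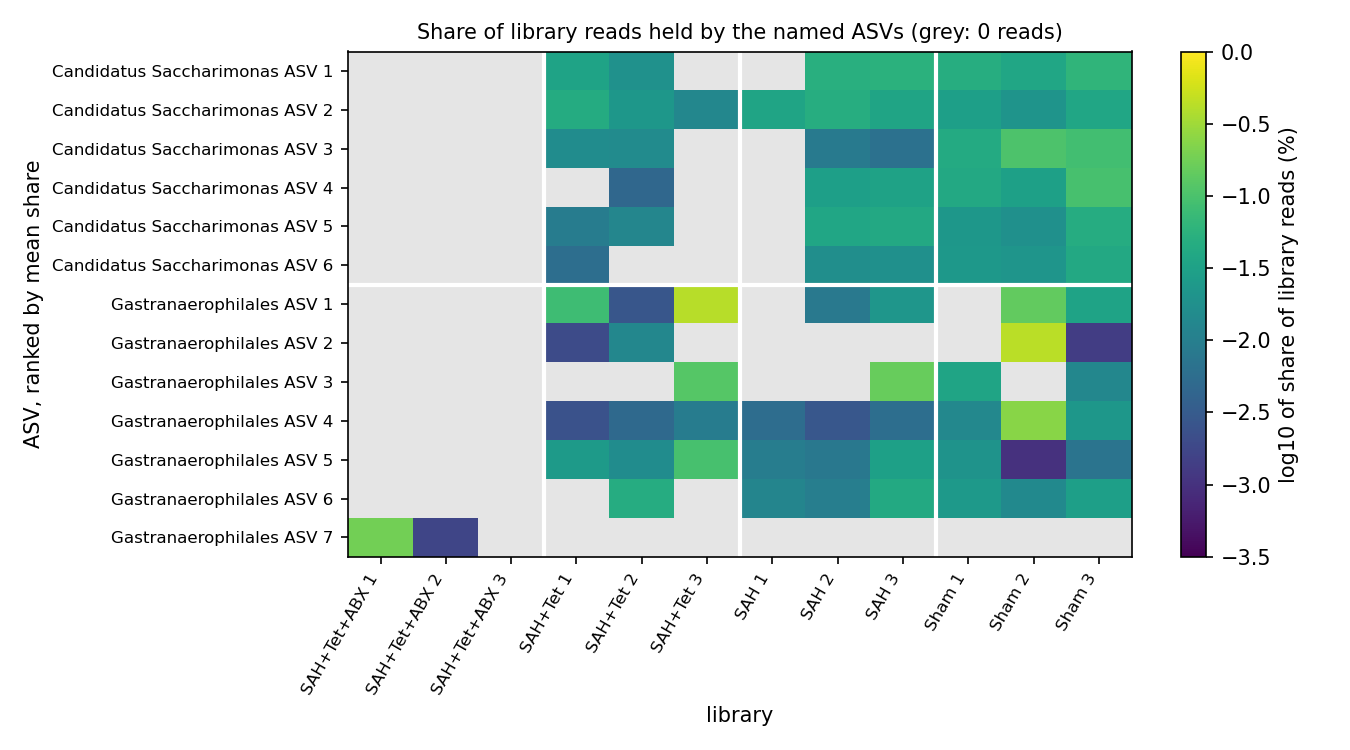
Log10 of the share of library reads in percent (colour) for the 6 most abundant ASVs of each phylum and Gastranaerophilales ASV 7, in the 12 libraries grouped from SAH+Tet+ABX on the left to Sham on the right. Grey cells had 0 reads. ASV 2 of Candidatus Saccharimonas and ASVs 4 and 5 of Gastranaerophilales have reads in all 9 libraries without antibiotics, and only Gastranaerophilales ASV 7 has reads in SAH+Tet+ABX.

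ASVs 4 and 5 were the only cyanobacterial ASVs with reads in all 9 libraries without antibiotics. ASV 4 had 0 reads in each SAH+Tet+ABX library, 11, 26 and 21 in SAH+Tet, 14, 15 and 26 in SAH, and 68, 1193 and 116 in Sham. Its share was 19.3-fold lower in SAH than in Sham and the groups did not overlap, as for 30.7% of all ASVs tested. The difference did not pass (log2 fold change -4.24 ± 1.49 SE, edgeR adjusted p = 0.140). Sham 2 sets most of that fold, and the 2 other Sham libraries, at 0.0137% and 0.0223%, still lay above the 0.00924% of SAH+Tet 3, the highest of SAH+Tet and SAH. ASV 5 had 0 reads in each SAH+Tet+ABX library, 117, 83 and 217 in SAH+Tet, 24, 42 and 140 in SAH, and 97, 5 and 36 in Sham. ASV 6 had 0 reads in each SAH+Tet+ABX library, 0, 237 and 0 in SAH+Tet, 31, 53 and 191 in SAH, and 124, 73 and 156 in Sham. Both overlapped among the groups without antibiotics.

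Against SAH+Tet, ASV 5 fell in SAH+Tet+ABX (log2 fold change -10.33, edgeR adjusted p = 0.0207, at least 34.9-fold lower) and so did ASV 4 (-7.44, adjusted p = 0.0431, at least 4.25-fold lower). With Candidatus Saccharimonas ASV 2 these were the 3 members past the threshold, and 10.3% of all 2394 ASVs tested were past it. They are also the 3 members with reads in all 9 libraries without antibiotics. The number of members past the threshold was 1 without SAH+Tet+ABX 1, SAH+Tet+ABX 2 or Sham 3, where between 2.95% and 3.60% of all ASVs passed. It was 0 without SAH+Tet+ABX 3, where 0 of all ASVs passed. It was 7 without SAH+Tet 3, where 21.5% of all ASVs passed, and 9 without SAH 1, where 24.2% did. DESeq2 called 17 members and 36.5% of all ASVs. Gastranaerophilales ASV 1, at least 127-fold lower by the same bound, did not pass (edgeR adjusted p = 0.0584). Its reads in SAH+Tet were spread over a wider range than those of ASVs 4 and 5. The part of this spread in the adjusted p was not tested.

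All cyanobacterial reads in SAH+Tet+ABX came from 1 ASV that no other group held. Gastranaerophilales ASV 7, named after its values were seen, had 375, 4 and 0 reads in SAH+Tet+ABX and 0 reads in each of the 9 other libraries. Its share was 0.177%, 0.00171% and 0%, at least 70.1-fold higher in the mean than SAH+Tet would allow at 3 reads per library. It was too rare across libraries to enter the test, which needed 10 reads in 3 libraries. With 1 library holding 375 of its 379 reads, the fold has no support from the spread between libraries. SAH+Tet+ABX 1 thus kept a phylum share inside the range of SAH without any of the 96 cyanobacterial ASVs seen in the other groups.

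Of the 151 members, 34 had enough reads for the ASV test, 14 Patescibacteria and 20 Cyanobacteria. The filter favours ASVs found in several libraries, so these 34 do not stand for all members. For SAH against Sham 0 of 34 members and 0 of 2283 ASVs passed in edgeR (0.0%). At an unadjusted p below 0.05 there were 7 members, 1 of Patescibacteria and 6 of Cyanobacteria, where 24.2% of all ASVs were below it. DESeq2 called 5 members and 17.8% of all ASVs, and limma on centred log-ratios 2 members and 11.8%. The groups did not overlap for 7 of the 34, all lower in SAH, 2 of Candidatus Saccharimonas and 5 of Gastranaerophilales, and 30.7% of all ASVs did not overlap. Both shares of members were near or under those of all ASVs.

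For SAH+Tet against SAH 0 of 34 members and 0 of 2283 ASVs passed in edgeR (0.0%), with 4 members and 20.8% of all ASVs at an unadjusted p below 0.05. DESeq2 called 1 member and 12.9% of all ASVs, and limma 0 members and 4.91%. The groups did not overlap for 3 members, all higher in SAH+Tet, against 16.0% of all ASVs. They were Gastranaerophilales ASVs 8 and 9 and Candidatus Saccharimonas ASV 9, with edgeR adjusted p of 0.197, 0.455 and 0.221, named because of this count. All 34 members tested had 0 reads in each SAH+Tet+ABX library. They entered the test through the other groups, so lower was the only direction open to them in that group. For SAH+Tet+ABX against SAH+Tet, 21 members were at an unadjusted p below 0.05 in edgeR, against 52.8% of all ASVs. The groups did not overlap for 9 members, against 22.8%.

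The median log2 fold change over the 14 and 20 ASVs tested was -6.34 in Patescibacteria, -8.11 in Cyanobacteria and -6.61 over all ASVs between SAH+Tet+ABX and SAH+Tet. For SAH+Tet against SAH it was -1.50 in Patescibacteria, -0.14 in Cyanobacteria and 0.15 over all ASVs. For SAH against Sham it was 0.07 in Patescibacteria, -0.21 in Cyanobacteria and -0.67 over all ASVs. Fitted values of ASVs with 0 reads in a group depend on the prior count, and those for SAH+Tet+ABX are not measured folds. Over all ASVs 74.3% had a fitted value below 0 in that comparison. With depth class as a term its medians were 0.76 in Patescibacteria, -7.96 in Cyanobacteria and -0.79 over all ASVs. With limma on centred log-ratios they were 0.13, -1.23 and -0.32. The sign of the fitted patescibacterial median thus depends on the setting. By counts, none of these 14 ASVs was higher in SAH+Tet+ABX, where each had 0 reads. The patescibacterial median for SAH against Sham also changed sign, at -1.01 with limma, and so did the cyanobacterial one for SAH+Tet against SAH, at 0.26 with library-size scaling.

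Most members were private to few libraries. Of the patescibacterial ASVs, 35 of 54 (64.8%) were seen in 1 library, and of the cyanobacterial ASVs 50 of 97 (51.5%), where 47.9% of all ASVs were. Fewer than 10 reads over the 12 libraries were held by 57.4% of the patescibacterial, 26.8% of the cyanobacterial and 30.7% of all ASVs. Patescibacteria thus had the larger part of very rare ASVs. In Gastranaerophilales some private ASVs had many reads. ASV 19 had 246 reads, all in SAH+Tet 2, and ASV 15 had 143, all in SAH+Tet 3. ASVs 26 and 29 had 107 and 104, all in Sham 3. These 4 are the cyanobacterial ASVs of 1 library with at least 100 reads, and Patescibacteria had none.

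**Figure D4:**
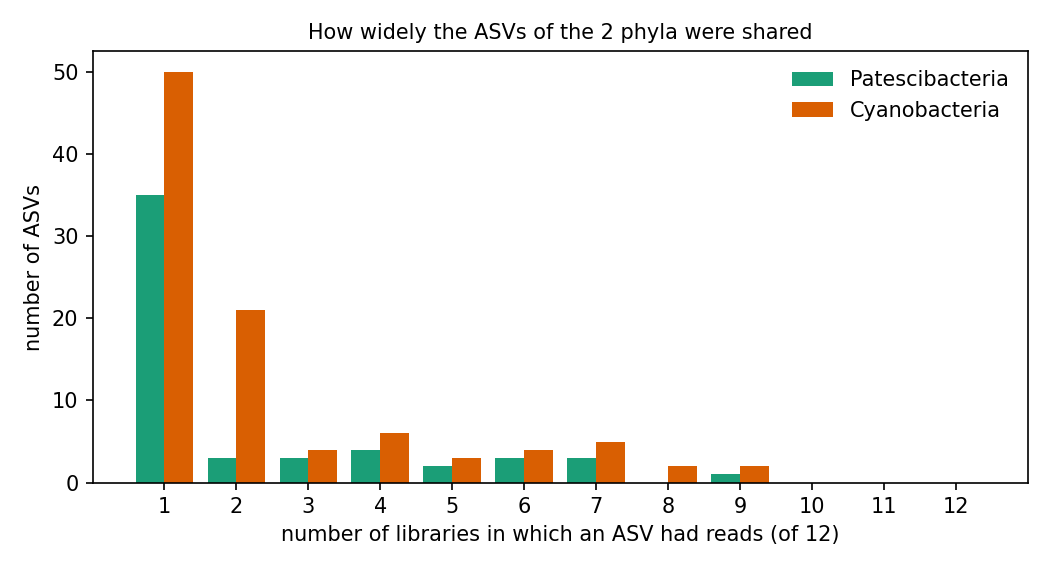
Number of ASVs (vertical axis) of Patescibacteria and Cyanobacteria by the number of libraries, of 12, in which they had reads (horizontal axis). The tallest bars, 35 and 50 ASVs, are those seen in 1 library, and 1 patescibacterial and 2 cyanobacterial ASVs reach 9 libraries.

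Reads were concentrated more in Patescibacteria, where the 6 most abundant ASVs held 78.9% of the reads of the phylum, than in Cyanobacteria, where they held 54.4%. Reads in SAH+Tet+ABX were found for 3 patescibacterial ASVs (5.56%) and 1 cyanobacterial ASV (1.03%), and for 15.2% of all ASVs. Of the 3, 1 also had reads in another group. Within groups, 28 patescibacterial ASVs were seen in SAH+Tet, 23 in SAH and 30 in Sham. The cyanobacterial ones numbered 47 in SAH+Tet, 43 in SAH and 56 in Sham. At species rank 46 cyanobacterial ASVs were named uncultured bacterium and 7 uncultured rumen, and 42 had no name, so the deposited taxonomy separates few of them further.

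The phylum that holds the known hosts of Saccharimonadia, Actinobacteriota, took 0.168%, 1.95% and 0.825% of reads in SAH+Tet+ABX and 7.92%, 11.1% and 0.147% in SAH+Tet. It took 0.259%, 12.0% and 11.0% in SAH and 0.865%, 0.674% and 0.430% in Sham. SAH+Tet 3 and SAH 1, low in Patescibacteria, were also low in Actinobacteriota within their groups, whereas Sham had the highest mean share of Patescibacteria and at most 0.865% Actinobacteriota. Of the genera that hold cultured hosts, Actinomyces had 3 reads in SAH+Tet+ABX 2, 15 each in SAH 2 and SAH 3 and 29 in Sham 2. Leucobacter had 10 and 13 reads in SAH 2 and SAH 3. Both had 0 reads in all other libraries, and Schaalia, Arachnia, Propionibacterium and Cellulosimicrobium had 0 in all 12. The part of host bacteria in the patescibacterial shares was not tested.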

How the data were processed

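Part of the 16S rRNA gene had been amplified from DNA of rat faeces and sequenced. The deposited values are counts of reads per ASV with a lineage, unscaled, 1 column per library. The submitters' processing notes name fastp and cutadapt. For denoiser, primers, gene region and taxonomy source no name was found in the labels or files, and they set how many ASVs are told apart and how they are named. Libraries were grouped by their labels. Of 7240 ASVs, 2 assigned to Eukaryota were left out. Members and lists were chosen with earlier results of these data known.

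Shares are percent of library reads, computed here. ASVs were summed to 385 genus-level features (genus, or deepest named rank). Phylum shares and ASV numbers were compared by exact two-sided permutation of libraries, with Benjamini-Hochberg adjustment over the 16 phyla with at least 10 reads in at least 3 libraries. Genus and ASV counts with the same minimum were tested on the whole table with edgeR 4.0.16 under R 4.3.3 (QL F-test, TMM scaling, groups as the only term, threshold 0.05): 9 libraries for SAH+Tet against SAH and SAH against Sham, all 12 for SAH+Tet+ABX against SAH+Tet. The SE of a log2 fold change is its size over the square root of F. The edgeR test of SAH+Tet+ABX against SAH+Tet was also tried on simulated counts, and the other tests were not. Alternatives were limma 3.58.1, DESeq2 1.42.0, other scalings, constants and filters, a replicate block, depth class and each library left out. Values in every library are given for the 4 most abundant genus-level features and the 6 most abundant ASVs of each phylum and for members past the threshold, and others are named as chosen later. Between libraries of 1 group the chi-square per degree of freedom was at least 57.1, so no 2 libraries agreed within counting error. Repeat extractions of 1 animal would not show in this check.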

Additional observations from a re-analysis of the deposited data

How the results depend on the processing

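Of 356 alternative values for 22 results, 320 kept their direction and side of the threshold, or stayed within 1.5 times for counts. The adjusted exact permutation p of the patescibacterial share was 0.0602 with the replicate number as a block and 0.510 without SAH+Tet+ABX, and that of the cyanobacterial share ran between 0.0222 and 0.154 with 1 library left out. For the ASV number, Patescibacteria gave 0.0264 to 0.129 with 1 library left out. Cyanobacteria gave 0.0651 at full depth, 0.0548 counting ASVs with at least 10 reads, 0.0787 with the block, 0.971 without SAH+Tet+ABX and 0.0231 to 0.0962 with 1 library left out. The cyanobacterial log2 difference of SAH+Tet against SAH was -0.23 within the higher depth class (exact permutation p = 1.0). For Gastranaerophilales in edgeR it was -0.69 within that class, an alternative chosen after seeing the data, as were limma and a fit of all 12 libraries for the genus fold changes, and -0.016 without SAH+Tet 3.

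Genus-level members called for SAH+Tet+ABX against SAH+Tet numbered 1 to 2 with 1 library left out. Member ASVs called for SAH against Sham were 5 by DESeq2, 2 by limma, 2 without a low-count filter and 1 with the 6 libraries alone. For SAH+Tet against SAH DESeq2 called 1. For SAH+Tet+ABX against SAH+Tet, DESeq2 called 17, edgeR without a filter 1, with the 6 libraries alone 8, with the block 1, and 0 to 9 with 1 library left out (0 without SAH+Tet+ABX 3, 9 without SAH 1). Over all ASVs that comparison called 247 as reported, 155 with library-size scaling, 874 by DESeq2, 422 with the 6 libraries alone, 99 with the block and 145 with depth class as a term. With 1 library left out it called 0 to 560. Over all genus-level features it called 73 as reported, 43 with the 6 libraries alone, 44 with the block and 45 without SAH+Tet+ABX 2. SAH against Sham called 0 as reported but 29 genus-level features with depth class as a term, 26 within the higher class and 1 without SAH 1 or SAH 3, and 407 ASVs by DESeq2, 270 by limma, 160 without a filter and 304 with the 6 libraries alone. SAH+Tet against SAH called 0 as reported but 294 ASVs by DESeq2, 112 by limma and 90 without a filter, and 1 genus-level feature within the higher class or without SAH 3. Causes were not tested. Same-numbered libraries did not deviate together in all pairs (r between -0.586 and 0.496), so the numbers were not taken as pairs. Leaving Chloroplast and Mitochondria out of the totals was not run because the table named 0 of either.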
